A study of Mus musculus with 2 samples.

Results

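The nuclear genes of respiratory complexes II to V were followed in the mouse cerebellum, in RNA captured with tagged ribosomes and in RNA left uncaptured. A gene was a member when its symbol in the platform annotation named a subunit of succinate dehydrogenase (Sdha to Sdhd), of the cytochrome bc1 complex (Uqcr genes and Cyc1), of cytochrome c oxidase (Cox4 to Cox8 genes) or of ATP synthase (Atp5 genes). Only probe sets that name 1 gene were used. This gave 47 members of 19503 genes in all, with 4 genes in complex II, 9 in complex III, 17 in complex IV and 17 in complex V. The members rest on 66 probe sets. Their Entrez identifiers and symbols matched the RefSeq genes of GRCm38.p6 for all 47.

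The TRAP sample and the unbound sample both came from pooled cerebella of Tg(Pcp2-L10a-Egfp) mice at postnatal day 7. A transgene under the Purkinje cell promoter of Pcp2 makes ribosomal protein L10a with a green fluorescent tag (EGFP). Translating ribosome affinity purification (TRAP) uses antibodies against that tag to pull tagged ribosomes out of a homogenate together with their mRNA. The TRAP sample is the RNA on the beads, and the unbound sample is the RNA that the beads left in the cleared homogenate. Unbound RNA thus includes mRNA on the untagged ribosomes of other cells, and it still holds RNA of Purkinje cells. Both samples carry the same transgene. How many animals were pooled, and whether 1 pool gave both samples, is not stated in the labels. Each fraction was hybridised to 1 Affymetrix array, so there is no replicate, no test and no error on any difference below. Differences are TRAP minus unbound on the log2 scale, and a gene is counted when its fractions lie at least 2-fold apart.

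The 4 complexes lie in the inner mitochondrial membrane. Complex II passes electrons from succinate to ubiquinone, complex III from ubiquinol to cytochrome c, and complex IV from cytochrome c to oxygen. Complex V uses the proton gradient to make ATP. Mature Purkinje cells fire spontaneously and rely heavily on mitochondrial ATP. All subunits of complex II are encoded in the nucleus, whereas complexes III, IV and V also contain subunits encoded by mitochondrial DNA and made on ribosomes inside the mitochondrion.

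The arrays had median log2 values of 6.92 (TRAP) and 7.25 (unbound) over 22097 probe sets, and the table holds no detection calls. The median of all values, 7.08, is used below as a floor. It marks the lower part of the scale and is no background level. Pcp2, the gene whose promoter drives the tag, read 12.98 in TRAP and 11.65 in unbound (2.52-fold). Among 14 Purkinje cell markers, 14 were higher in TRAP and 8 reached 2-fold. Their median difference was 1.19 and their summed level 16.14 in TRAP and 15.02 in unbound. Of 12 granule neuron markers, 11 were at least 2-fold lower in TRAP, and their summed level was 13.55 in TRAP and 15.17 in unbound. At least 2-fold lower in TRAP were also 8 of 10 astrocyte and Bergmann glia markers, 8 of 9 oligodendrocyte markers, 10 of 11 granule progenitor and cell cycle markers and 4 of 8 interneuron markers. In TRAP the summed level was 12.73 for astrocyte, 10.34 for oligodendrocyte, 11.33 for progenitor and 10.43 for interneuron markers, against 14.23, 12.29, 13.40 and 12.12 in unbound. A summed level depends mostly on its brightest genes and serves only to compare the 2 fractions. Among the astrocyte markers Fabp7 alone read 12.27 in TRAP and 13.25 in unbound. The part these shifts of cell type play in the differences of the respiratory genes was not tested.

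Respiratory genes were higher on the tagged ribosomes almost throughout. Of the 47 members, 46 had a higher value in TRAP and 1, Sdhc, had a lower one. At least 2-fold higher in TRAP were 19 members (40.4%), where 4.58% of all genes were. No member was at least 2-fold lower in TRAP, where 11.0% of all genes were. The median of the members was 11.62 in TRAP and 10.66 in unbound, and the median of their differences was 0.79 (1.73-fold), beside 0.10 for all genes. A difference above 0, however small, was found for 57.6% of all genes. As deposited, 894 of all genes were at least 2-fold higher and 2150 lower, and with each array's median subtracted 1978 were higher and 1327 lower. After quantile normalization 1301 were higher and 1677 lower. No member was lower by that much under these scalings, and 28 (array medians subtracted) and 16 (quantile) were higher. In samples of this kind a larger share of Purkinje RNA and more respiratory mRNA per Purkinje cell cannot be told apart.

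**Figure D1:**
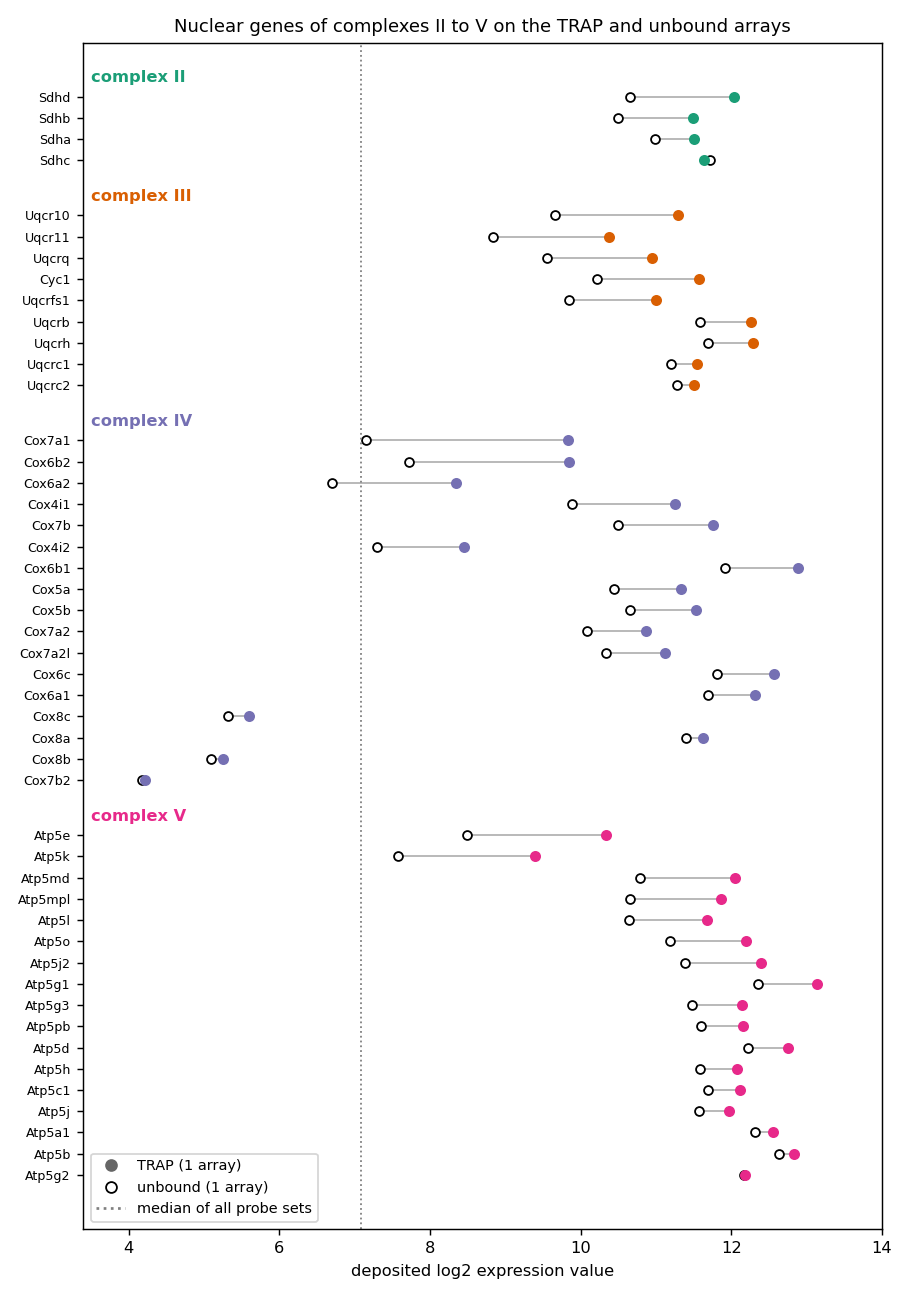
Deposited log2 values of the 47 members on the TRAP array (filled) and the unbound array (open), sorted within each complex by the difference. The TRAP value lies right of the unbound value for every gene except Sdhc, and Cox8c, Cox8b and Cox7b2 lie left of the dotted median of all probe sets on both arrays.

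Most members read high on both arrays. The floor was exceeded on both arrays by 43 members, on the TRAP array alone by Cox6a2, and on neither array by Cox7b2, Cox8b and Cox8c. Among the 39 members whose mean of both arrays exceeded the 75th percentile of all values (9.01), 14 were at least 2-fold higher in TRAP (35.9%), where 9.56% of all genes of that level were. Their median difference was 0.79, beside 0.01 for the 4623 genes of that level. Between mean levels of 7.08 and 9.01 all 5 members reached 2-fold, with a median of 1.82, beside 6.77% of 5111 genes. Between 9.01 and 10 all 2 members did, with a median of 1.69, beside 10.3% of 2404 genes. Between mean levels of 10 and 11, all 9 members were higher in TRAP with a median of 1.16, while the 1522 genes of that range had a median of 0.05. Between 11 and 12 the 20 members had a median of 0.63, beside 0.11 for 554 genes. Above 12 the 8 members had a median of 0.58 and none reached 2-fold, beside 0.14 for 143 genes.

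Mean level and difference were negatively related among the members, more so among those of high level. Across all 47 members Spearman rho was -0.46 and Pearson r -0.19. Across the 39 members above the 75th percentile, Spearman rho between mean level and difference was -0.65 (Pearson r -0.68). Across all 4623 genes of that level rho was 0.09. These values describe genes on the same 2 arrays, which are not replicates, and the level of a probe set also depends on its probes. The highest value on either array was 13.65.

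**Figure D2:**
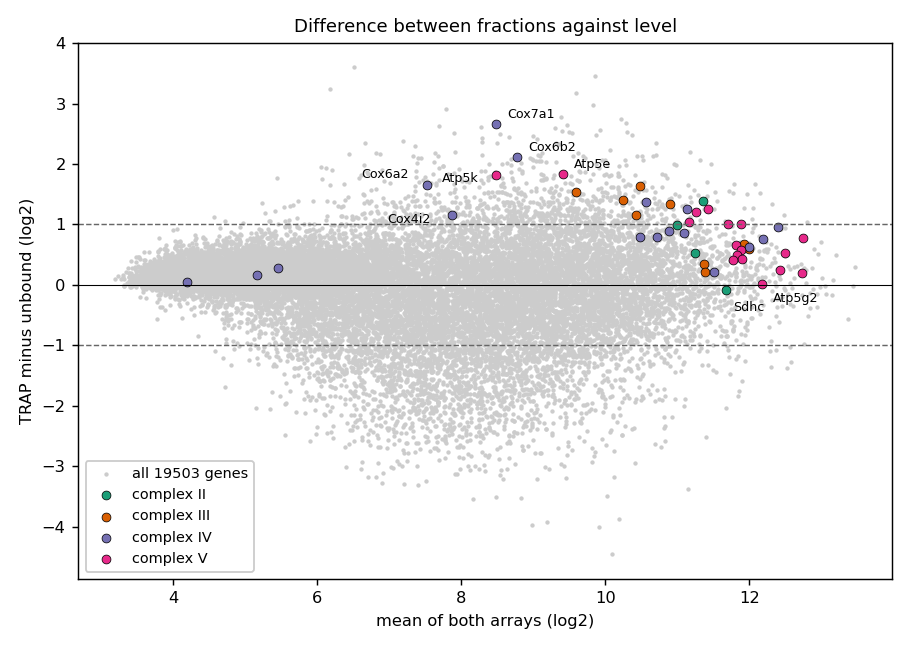
TRAP minus unbound (log2) against the mean of both arrays (log2) for all 19503 genes in grey and the members coloured by complex, with dashed lines at 2-fold. Cox7a1 is the highest member at 2.67, and the members above a mean of 12 all lie between 0.01 and 0.96.

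Complex II oxidises succinate and is shared with the citric acid cycle. Its 4 genes gave unlike differences, with a median of 0.76. Sdhd, a membrane anchor that binds haem and ubiquinone together with Sdhc, read 12.04 in TRAP and 10.66 in unbound (2.61-fold). Sdhb, the iron-sulfur subunit, read 11.49 in TRAP and 10.50 in unbound. At 1.99-fold it lay just short of 2-fold. Sdha, the flavoprotein that holds the succinate site, read 11.51 in TRAP and 10.98 in unbound (1.44-fold). Sdhc, the other anchor, read 11.64 in TRAP and 11.72 in unbound. Its difference of -0.08 was also negative after quantile normalization (-0.16) and after removal of a loess trend (-0.22), but positive (0.25) when each array's median was subtracted.

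Complex III had the highest median of the 4 complexes, 1.16, and 5 of its 9 genes were at least 2-fold higher in TRAP. The subunits that carry electrons were among them. Cyc1, cytochrome c1, read 11.57 in TRAP and 10.22 in unbound (2.54-fold). Uqcrfs1, the Rieske iron-sulfur protein, read 11.00 in TRAP and 9.84 in unbound (2.24-fold). The small accessory subunits ranged widely. Uqcr10 led the complex with 11.29 in TRAP and 9.66 in unbound (3.10-fold). Uqcr11 read 10.37 in TRAP and 8.83 in unbound (2.91-fold), and Uqcrq, which lies beside cytochrome b, read 10.95 in TRAP and 9.55 in unbound (2.64-fold). Uqcrb and Uqcrh, the hinge protein beside cytochrome c1, were 1.59-fold and 1.52-fold higher. The large core proteins of the matrix side had the smallest differences. Uqcrc1 read 11.54 in TRAP and 11.20 in unbound (1.26-fold), and Uqcrc2 read 11.50 in TRAP and 11.28 in unbound (1.17-fold). The median of mean levels was 11.38 for the core proteins, 10.66 for Cyc1 and Uqcrfs1, and 10.48 for the small accessory subunits. The part of level in these differences was not tested.

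In complex V, all 17 genes were higher in TRAP as deposited, 7 at least 2-fold, with a median of 0.66. The 5 small membrane subunits, which sit beside the proton channel and where monomers meet in dimers, were each at least 2-fold higher, with a median of 1.20. Atp5k, subunit e, read 9.39 in TRAP and 7.58 in unbound (3.52-fold). Atp5md, known as DAPIT, read 12.05 in TRAP and 10.79 in unbound (2.39-fold). The proteolipid gene Atp5mpl read 11.86 in TRAP and 10.66 in unbound (2.29-fold). The remaining genes of this group lay close to the threshold. Atp5l, subunit g, read 11.68 in TRAP and 10.64 in unbound (2.06-fold), and Atp5j2, subunit f, read 12.39 in TRAP and 11.38 in unbound (2.01-fold). After quantile normalization the difference of Atp5j2 was 0.93 and that of Atp5l 0.98, and after removal of the loess trend they were 0.86 and 0.94, all short of 2-fold.

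In the F1 head the genes of the catalytic ring had small differences. Atp5b, the catalytic beta subunit, read 12.83 in TRAP and 12.63 in unbound (1.15-fold), and Atp5a1, the alpha subunit, read 12.55 in TRAP and 12.31 in unbound (1.19-fold). The central stalk genes differed from one another. Atp5c1 (gamma) was 1.34-fold and Atp5d (delta) 1.45-fold higher, whereas Atp5e (epsilon) read 10.33 in TRAP and 8.49 in unbound, at 3.58-fold the largest difference of the complex. Among the 4 genes of the peripheral stalk, which holds the head still, Atp5o (the oligomycin sensitivity protein) reached 2.02-fold, with 12.20 in TRAP and 11.19 in unbound. Its difference was 0.93 after quantile normalization and 0.88 after loess removal, short of 2-fold. Atp5pb, Atp5h and Atp5j lay between 1.32-fold and 1.48-fold. The grouping of subunits by place in the complex was made after the values had been seen, and no difference between such groups was tested. The groups also differed in level. The median of mean levels was 12.43 for the F1 head and central stalk, 11.80 for the peripheral stalk and 11.26 for the small membrane subunits. Atp5e had the lowest mean level of the F1 genes, 9.41. The part of level in these differences was not tested.

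The c ring turns as protons pass. In mammals 3 genes, Atp5g1, Atp5g2 and Atp5g3, encode the same mature c subunit behind different import sequences. Atp5g1 read 13.14 in TRAP and 12.36 in unbound (1.72-fold), with probe sets at 0.74 and 0.82. Atp5g3 read 12.14 in TRAP and 11.48 in unbound (1.57-fold). Atp5g2 read 12.18 in TRAP and 12.17 in unbound, and its 3 probe sets gave differences between -0.01 and 0.03. Subtraction of the array medians gave 0.34 for Atp5g2, and quantile normalization and loess removal gave -0.10 and -0.16. The difference of Atp5g1 exceeded that of Atp5g2 by 0.77 and the difference of Atp5g3 did so by 0.65, while Atp5g1 and Atp5g3 were 0.13 apart.

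RefSeq promoters are shown for 4 complex V genes, the pair with its largest differences (Atp5e and Atp5k) and the c subunit genes that parted (Atp5g1 and Atp5g2). Each runs 5′ to 3′ over 250 bases before and 50 after the RefSeq start in GRCm38.p6. Capitals mark the NRF1 core GCATGCGC, the ETS site CCGGAAG (bound by GABP, among others) or the ERR site AAGGTCA, on either strand.
Atp5e, chr2:174464052-174464351, strand -: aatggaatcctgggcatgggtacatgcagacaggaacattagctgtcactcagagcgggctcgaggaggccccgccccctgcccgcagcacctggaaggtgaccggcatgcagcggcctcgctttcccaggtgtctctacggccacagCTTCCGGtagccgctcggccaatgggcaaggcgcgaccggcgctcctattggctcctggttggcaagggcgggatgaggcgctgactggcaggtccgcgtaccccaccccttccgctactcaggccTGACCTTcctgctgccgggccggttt
Atp5k, chr5:108434350-108434649, strand -: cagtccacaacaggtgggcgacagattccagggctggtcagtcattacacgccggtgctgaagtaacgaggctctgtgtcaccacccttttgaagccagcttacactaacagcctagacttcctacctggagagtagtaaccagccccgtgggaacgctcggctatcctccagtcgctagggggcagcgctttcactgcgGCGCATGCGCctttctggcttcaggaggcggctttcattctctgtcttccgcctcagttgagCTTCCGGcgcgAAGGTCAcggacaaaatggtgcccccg
Atp5g1, chr11:96075582-96075881, strand -: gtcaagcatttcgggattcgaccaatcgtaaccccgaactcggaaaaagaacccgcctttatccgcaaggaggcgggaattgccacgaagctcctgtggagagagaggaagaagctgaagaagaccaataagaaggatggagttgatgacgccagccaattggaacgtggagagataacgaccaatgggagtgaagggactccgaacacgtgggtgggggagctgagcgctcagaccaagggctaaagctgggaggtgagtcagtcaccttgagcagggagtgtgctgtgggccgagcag
Atp5g2, chr15:102670998-102671297, strand -: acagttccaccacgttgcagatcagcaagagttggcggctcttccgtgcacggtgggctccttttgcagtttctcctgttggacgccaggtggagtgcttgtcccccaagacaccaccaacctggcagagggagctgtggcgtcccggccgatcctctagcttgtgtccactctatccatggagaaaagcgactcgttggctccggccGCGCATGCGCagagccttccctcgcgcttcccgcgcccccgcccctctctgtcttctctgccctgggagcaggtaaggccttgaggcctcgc

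Atp5k held all 3 marked motifs and Atp5e the ETS and ERR sites. Atp5g1 held none of them. Atp5g2, with nearly equal values on both arrays, held the NRF1 core on both strands in overlap, as Atp5k did. A promoter was found in the RefSeq table for 35 of the 47 members. The NRF1 core was in 7 of them (20.0%), beside 3.05% of 27025 genes with a promoter there. The ETS site was in 13 (37.1%, beside 9.93%) and the ERR site in 5 (14.3%, beside 5.38%). Members' promoters are also richer in CG dinucleotides, with a median of 20 in the 31 that are not tissue isoforms and 7 over all promoters, which bears on any motif that contains CG.

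Members with and without a motif were counted by difference, and the counts did not run one way. Of the 7 members with an NRF1 core, 3 reached 2-fold, as did 10 of the 28 without. For the ETS site the counts were 6 of 13 with it and 7 of 22 without. For the ERR site they were 4 of 5 with it (Atp5e, Atp5k, Atp5l and Sdhd, not Atp5g3) and 9 of 30 without. The YY1 core AAGATGGC was in 3 members (8.57%, beside 3.19%), of which 1 reached 2-fold, as did 12 of the 32 without. The Sp site GGGCGG was in 14 (40.0%, beside 38.2%), of which 4 reached 2-fold, as did 9 of the 21 without. For the E-box CANNTG the counts were 7 of 24 with it and 6 of 11 without. A match is a run of letters in this window, not a bound site. The motifs were chosen after the members' values had been seen.

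Complex IV held the widest range of differences, 0.04 to 2.67. All 17 genes were higher in TRAP as deposited, 6 at least 2-fold, with a median of 0.86. Cox4i1, which carries the site where ATP slows the enzyme, read 11.25 in TRAP and 9.89 in unbound (2.58-fold). Cox7b read 11.76 in TRAP and 10.50 in unbound (2.40-fold), with probe sets at 1.15 and 1.38. The other subunits found in all tissues were less than 2-fold apart. Cox6b1, on the face that meets cytochrome c, read 12.88 in TRAP and 11.92 in unbound (1.95-fold). Cox7a2 read 10.87 in TRAP and 10.08 in unbound (1.73-fold), and Cox6a1 read 12.31 in TRAP and 11.69 in unbound (1.54-fold). Cox5a and Cox5b, which hold the enzyme's matrix side, were 1.86-fold and 1.82-fold higher, and Cox6c was 1.69-fold higher. Cox7a2l, a Cox7a relative that joins complexes III and IV in supercomplexes, read 11.12 in TRAP and 10.33 in unbound (1.73-fold), with probe sets at 0.67 and 0.90. Cox8a had the smallest difference among the general subunits, with 11.62 in TRAP and 11.40 in unbound (1.17-fold). Cox7c was not analysed here.

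Some subunits of cytochrome c oxidase come in isoforms made by separate genes. Cox6a2, Cox7a1 and Cox8b are the isoforms of heart and skeletal muscle, Cox6b2, Cox7b2 and Cox8c are best known from testis, and Cox4i2 from lung and from cells low in oxygen. The largest differences of complex IV belonged to 3 of these genes. Cox7a1 read 9.83 in TRAP and 7.15 in unbound. This 6.38-fold difference ranked 10th of all 19503 genes. Cox6b2 read 9.84 in TRAP and 7.72 in unbound (4.34-fold, rank 56). Cox6a2 read 8.35 in TRAP and 6.70 in unbound (3.15-fold, rank 187). The unbound value of Cox6a2 lies under the floor, so the size of its fold is uncertain. That of Cox7a1 lies just above the floor of 7.08, so the size of its fold and its rank are uncertain too. Each of the 3 differences exceeded that of Pcp2 (1.34), as those of 11 members did in all. The smallest of these 11, that of Cyc1, ranked 398th of all 19503 genes. Differences of the 14 Purkinje cell markers ran from 0.49 to 3.17.

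Set beside the isoform of other tissues, these genes stood out by difference, not by level, since levels of separate probe sets cannot be compared. The difference of Cox7a1 exceeded that of Cox7a2 by 1.88 and that of Cox7a2l by 1.89 on the log2 scale. Cox6b2 exceeded Cox6b1 by 1.16 and Cox6a2 exceeded Cox6a1 by 1.03. The gaps of Cox7a1 and Cox6a2 are uncertain in size, since their unbound values lie near or under the floor. Cox4i2 read 8.45 in TRAP and 7.29 in unbound (2.22-fold), the unbound value again near the floor. Its difference was 0.22 smaller than that of Cox4i1. That order was not kept under other scalings, since Cox4i2 exceeded Cox4i1 by 0.06 after quantile normalization and by 0.04 after removal of the loess trend.

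The other tissue isoforms read low in both fractions. Cox8b, the muscle isoform of subunit 8, read 5.25 in TRAP and 5.09 in unbound. Cox8c read 5.60 in TRAP and 5.32 in unbound, and Cox7b2 read 4.22 in TRAP and 4.18 in unbound. All 6 values lie under the floor, and differences there (0.16, 0.28 and 0.04) are no larger than the median of all genes below the floor (0.16) except for Cox8c. After quantile normalization and after loess removal Cox7b2 was at -0.14 in both, and Cox8b at 0.02 and -0.01. Of the muscle set, Cox7a1 and Cox6a2 were thus at least 2-fold higher in TRAP and Cox8b was not, and of the testis set Cox6b2 was and Cox7b2 and Cox8c were not.

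**Figure D3:**
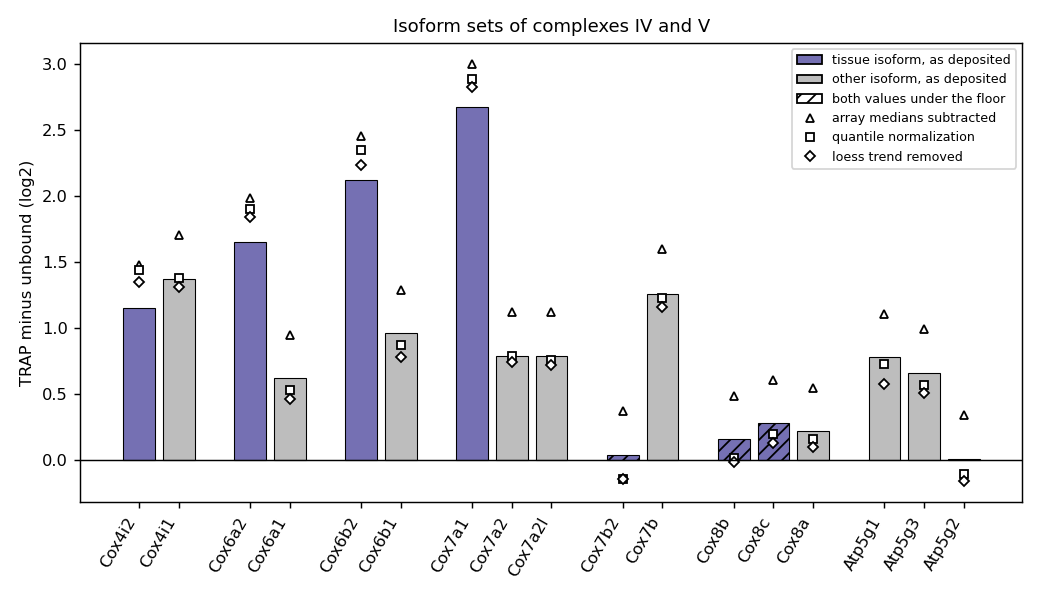
TRAP minus unbound (log2) for the isoform sets of complexes IV and V, with bars for the values as deposited and symbols for 3 other scalings of the arrays. Cox7a1, Cox6b2 and Cox6a2 exceed their partners under each scaling, and the hatched genes (Cox7b2, Cox8b and Cox8c) lie under the floor on both arrays.

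The RefSeq promoters of the Cox7a pair, which had the widest gap between isoforms, follow, over the same window and with the same marking. The TATA element TATAAA was searched as well.
Cox7a1, chr7:30183921-30184220, strand +: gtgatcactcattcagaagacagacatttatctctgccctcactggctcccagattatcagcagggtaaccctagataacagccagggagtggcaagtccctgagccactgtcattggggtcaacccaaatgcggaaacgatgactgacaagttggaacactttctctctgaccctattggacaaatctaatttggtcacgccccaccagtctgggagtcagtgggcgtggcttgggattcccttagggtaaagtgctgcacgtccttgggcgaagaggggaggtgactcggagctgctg
Cox7a2, chr9:79759804-79760103, strand -: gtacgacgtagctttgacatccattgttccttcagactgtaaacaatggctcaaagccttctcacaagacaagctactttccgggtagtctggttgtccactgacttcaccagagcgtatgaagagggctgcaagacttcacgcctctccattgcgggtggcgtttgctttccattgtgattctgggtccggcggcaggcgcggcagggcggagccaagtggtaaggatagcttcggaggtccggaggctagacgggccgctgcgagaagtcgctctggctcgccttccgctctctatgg

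Neither promoter of the pair held a marked motif. Both hold an E-box (CANNTG), as do 20265 of the 27025 genes in the table and 24 of the 35 members, and Cox7a2 also holds an Sp site. Of the 4 tissue isoforms with a promoter there (Cox6b2, Cox7a1, Cox7b2 and Cox8b), none held the NRF1 core, the ETS site, the ERR site or the YY1 core. The MEF2 consensus of muscle genes was in none of the 35 members and in 3.70% of all genes. The muscle-type E-box CAGCTG, which is contained in CANNTG, was in Cox8b and Atp5b, and in 18.3% of all genes. The TATA element was in Cox8b, Cox7b2, Atp5l and Atp5md (11.4% of members, 15.7% of all genes).

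Markers of muscle were examined beside the muscle isoforms. Of 25 skeletal and cardiac muscle markers, 22 were higher in TRAP but 1 was at least 2-fold higher (4.0%, beside 4.58% of all genes). The floor was exceeded on at least 1 array by 7 of them. Among all genes with a mean level under the floor, 70.2% had a difference above 0. Their median difference was 0.36, and their summed level was 11.74 in TRAP and 11.06 in unbound. The exception was Tnnt1, slow skeletal troponin T, with 10.13 in TRAP and 7.99 in unbound (4.41-fold). Myl2 came next, with 6.22 in TRAP and 5.22 in unbound, just short of 2-fold. Ckm, muscle creatine kinase, read 6.87 in TRAP and 6.55 in unbound, and Mb (myoglobin) read 6.55 in TRAP and 6.21 in unbound. The myosin genes Myh1, Myh2 and Myh4 read between 4.80 and 5.58. Those values all lie under the floor. Acta1, skeletal muscle actin, was above it on both arrays, with 8.18 in TRAP and 7.66 in unbound. Myod1 had the lowest difference of the list, with 6.93 in TRAP and 7.71 in unbound. Of 7 brown fat markers, a tissue that also makes Cox7a1 and Cox8b, none was at least 2-fold higher in TRAP, and Ucp1 read 5.27 in TRAP and 4.92 in unbound. Of these 7 markers 1 exceeded the floor, and their summed level was 8.58 in TRAP and 8.89 in unbound.

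Cox4i2 is also made by cells of the vessel wall. Of 10 endothelial and mural markers, 5 were at least 2-fold lower in TRAP and none was higher by that much, with a summed level of 9.86 in TRAP and 11.09 in unbound. Of these 10 markers 4 exceeded the floor on at least 1 array, and Cdh5 and Kdr, which are among the 5, did not. Rgs5, a pericyte gene, read 7.50 in TRAP and 9.36 in unbound, and Acta2 read 6.49 in TRAP and 8.54 in unbound. Of 8 microglia and blood markers none was at least 2-fold higher in TRAP, 2 exceeded the floor on at least 1 array, and their summed level was 9.05 in TRAP and 9.64 in unbound.

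Several members had more than 1 probe set. For the 11 members with several probe sets the range of their differences had a median of 0.09 and ran from 0.03 to 0.40. Among 787 genes of the whole table with several probe sets the median range was 0.24. The widest range was that of Atp5pb, with probe sets at 0.37 and 0.77, while the 6 probe sets of Atp5l lay between 0.97 and 1.10. Probe sets of 1 gene may share probes, and those of Atp5md include 2 with identical values. RefSeq names pseudogenes after 6 members (Atp5c1, Atp5k, Atp5l, Atp5pb, Cox5b and Uqcrh), and such near-identical copies cannot be told apart from the genes here. Copies that carry another name were not counted, so members outside these 6 may have them too.

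The proteins that build and serve the complexes were examined next. Of 31 assembly factors of complexes II to V with a value, 29 were higher in TRAP, 10 at least 2-fold, with a median of 0.82. Cox17, the copper chaperone of complex IV, read 10.69 in TRAP and 9.10 in unbound (3.01-fold), and Sdhaf4, a complex II assembly factor, read 8.71 in TRAP and 7.12 in unbound (3.01-fold). At the other end Coa5 read 8.68 in TRAP and 9.64 in unbound, and Sdhaf1 read 8.33 in TRAP and 8.66 in unbound. Cycs, the somatic cytochrome c that links complexes III and IV, was 2.27-fold higher (10.90 in TRAP, 9.72 in unbound). Atpif1, the inhibitor of ATP synthase, was 1.24-fold higher (12.70 in TRAP, 12.38 in unbound).

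The mitochondrially encoded partner that could be measured went the other way. Of 13 such subunits, 1 has a value through probe sets that name 1 gene, the oxidase subunit COX2. It read 7.86 in TRAP and 12.32 in unbound, a difference of -4.46. COX2 mRNA is translated by mitochondrial ribosomes, which do not contain L10a. The part this plays in the difference of COX2 was not tested. The nuclear members of the same complex had differences of 0.04 to 2.67.

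Complex I and the mitochondrial ribosome were also higher in TRAP. Of 35 genes named as complex I subunits, 34 were higher in TRAP and 19 at least 2-fold (54.3%), with a median of 1.07. That list follows the symbols and includes Ndufa4, which is now assigned to complex IV and read 12.04 in TRAP and 11.38 in unbound. Ndufb8 was its highest gene, with 11.18 in TRAP and 9.20 in unbound, and its lowest was Ndufa4l2, with 6.88 in TRAP and 7.41 in unbound. Of 75 mitochondrial ribosomal proteins, 73 were higher in TRAP and 30 at least 2-fold (40.0%), with a median of 0.86. With no replicate, the medians 0.79, 1.07 and 0.86 are not shown to differ.

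**Figure D4:**
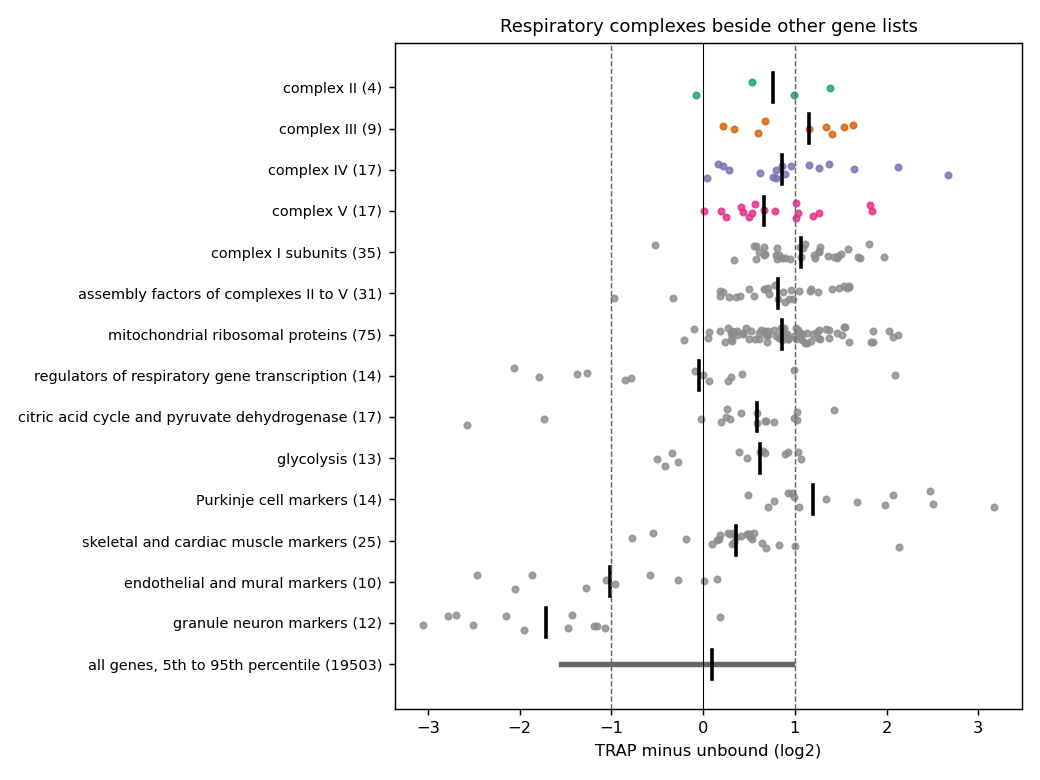
TRAP minus unbound (log2) for each gene of complexes II to V and of other lists (1 point per gene, black bar at the median, number of genes in brackets, dashed lines at 2-fold), with the 5th to 95th percentile of all genes at the bottom. The medians of complexes II to V run from 0.66 to 1.16, that of the regulators is -0.04 and that of granule neuron markers -1.71.

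Regulators known to act on respiratory genes were spread on both sides. Of 14 with a value, 7 were higher in TRAP, 1 at least 2-fold, and 4 were at least 2-fold lower, with a median of -0.04. Esrra, the orphan nuclear receptor that binds ERR sites, read 10.03 in TRAP and 7.94 in unbound (4.26-fold). Esrrg, a receptor of the same family that binds the same sites, went the other way, with 9.46 in TRAP and 10.84 in unbound (2.59-fold lower). Tfb1m, a mitochondrial rRNA methyltransferase, followed at 1.99-fold. Gabpb2, a beta subunit of the ETS factor GABP, read 6.85 in TRAP and 8.91 in unbound, and Sp1 read 7.42 in TRAP and 9.20 in unbound. Nrf1 read 7.57 in TRAP and 8.35 in unbound, and Gabpa, the alpha subunit of GABP, read 8.91 in TRAP and 10.18 in unbound. No relation between these factors and the members was tested.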

How the data were processed

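RNA was measured in 2 samples, TRAP and unbound, on 1 Affymetrix whole-transcript array each. The deposited table holds 1 log2 value per probe set, for which the submitters' processing notes name Affymetrix Power Tools. No source used here gives its version, background correction or normalization. The authors' log2 base was taken from the deposited values, which run from 3.15 to 13.65 and as natural logs would exceed a scanner's range. Probe sets that name 1 gene in the platform annotation (20999 of 22097) were averaged per gene, 91 that name several were left out and 1007 are unnamed here. Values were used as deposited, with no filter on level. With 1 array per fraction no test was run, and the number of arrays limits the precision. The members and the 16 gene lists (220 different genes) were chosen with earlier results of these data known. Values on both arrays are given for every member at least 2-fold apart, every member of an isoform set and both ends of each complex. Of each other list at most 2 genes from each end were named by rule. Ckm, Mb, Acta1, Myh1, Myh2, Myh4, Rgs5, Cdh5, Kdr, Esrrg, Nrf1, Gabpa and Ndufa4 were added after their values were seen. Alternatives were 3 scalings (array medians subtracted, quantile normalization, a loess trend with span 0.3 removed), 3 floors, the brightest probe set, probe sets with equal values left out, and thresholds of 1.5-fold and 4-fold. Promoters are RefSeq's for GRCm38.p6. Scripts ran in Python 3.11.15 with pandas 2.3.3, numpy 2.4.6, scipy 1.17.1 and statsmodels 0.14.6 and were tested on simulated data.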

Additional observations from a re-analysis of the deposited data

How the results depend on the processing

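No member at least 2-fold higher in TRAP changed sign after quantile normalization, loess removal or the choice of the brightest probe set. The other alternatives could not change such a sign. The floors and the omission of equal-valued probe sets left the members' values as they were, and subtracting array medians raised every difference. Of the 47 members, 19 were at least 2-fold higher in TRAP as deposited, 28 with array medians subtracted and 16 after quantile normalization and also after loess removal. At 1.5-fold the count was 31 and at 4-fold it was 2, and no member was lower by 1.5-fold under the values as deposited. The number with a difference above 0 ran from 43 (loess) to 47 (array medians subtracted) over the scalings. Subtracting the array medians moved all genes by 0.33, so that the median of all genes was 0.43, the median of all members 1.12, and those of complexes II, III, IV and V 1.09, 1.5, 1.19 and 0.99. The members' median exceeded that of all genes by 0.69 as deposited, 0.73 after quantile normalization and 0.74 after loess removal. Subtracting array medians cannot change this gap. Loess removal gave 0.51 for complex V. Isoform gaps were 1.37 (quantile) and 1.37 (loess) for Cox6a2 over Cox6a1, 1.48 and 1.44 for Cox6b2 over Cox6b1, 2.09 and 2.07 for Cox7a1 over Cox7a2, and 2.12 and 2.10 for Cox7a1 over Cox7a2l, or 2.00 with the brightest probe set. Cox7b2 minus Cox7b was -1.23 as deposited, -1.37 (quantile) and -1.11 (brightest probe set), but Cox7b2 lies under the floor on both arrays and the size of this gap cannot be read. Cox4i2 minus Cox4i1 changed sign, to 0.06 (quantile) and 0.04 (loess); the cause was not tested. No paired analysis was possible because each fraction has 1 array. Without detection calls, no signal over background is known for the low isoforms.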

Other observations

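The citric acid cycle and pyruvate dehydrogenase, which feed electrons to the complexes, were higher in TRAP in 14 of 17 genes, and 3 reached 2-fold. The median was 0.59. Suclg1, the subunit shared by both succinyl-CoA ligases, was 2.69-fold higher (10.98 in TRAP, 9.55 in unbound), and Sucla2, the partner for the ATP-forming enzyme, was 1.98-fold higher (11.58 in TRAP, 10.59 in unbound). Suclg2, the partner for the GTP-forming enzyme, read 5.70 in TRAP and 8.28 in unbound, a difference of -2.57. Its TRAP value lies under the floor. Idh2, the mitochondrial isocitrate dehydrogenase that uses NADP, read 8.11 in TRAP and 9.84 in unbound, whereas Idh3a, Idh3b and Idh3g, the subunits of the NAD-linked enzyme, had differences of 0.59, 0.67 and 0.29. Sucla2 and the Idh3 genes were named after their values were seen.

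Of 13 glycolysis genes, 9 were higher in TRAP, 2 at least 2-fold, with a median of 0.62. The lactate dehydrogenase genes parted, since Ldhb read 11.68 in TRAP and 10.61 in unbound (2.09-fold) and Ldha read 11.42 in TRAP and 11.76 in unbound. Hk1 and Pfkm had the lowest differences, at -0.50 and -0.41. With 1 array per fraction these are values without a test. Ldha was named after its value was seen.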
